A study of Homo sapiens with 9 samples.

Results

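SGA360 is a compound that the study's title calls a selective ligand of the aryl hydrocarbon receptor (AHR), and the data below describe what its addition changed in Caco-2 cells that also received lovastatin. The comparison used the 3 RNA libraries labelled lovastatin plus SGA360 and the 3 labelled lovastatin, 6 of the 9 libraries of the study, chosen by their labels alone. Both groups were Caco-2 cells, an established line from a human adenocarcinoma of the colon with enterocyte features, treated in medium whose serum had been depleted of lipids. Both received 10 µM lovastatin for 48 h, and the SGA360 group received 10 µM SGA360 over the same 48 h. The remaining 3 libraries had lovastatin with 10 µM of a further ligand, SGA315, for 48 h, and serve here only to test where the response to SGA360 differed from that to SGA315. Cells without lovastatin, or with SGA360 alone, were not analysed here, so every change is one between lovastatin-treated cells of 1 cancer line. The labels do not say whether replicates were separate cultures, and the p-values below reflect only how these libraries varied among themselves, which may be technical.

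AHR is a transcription factor that is held in the cytoplasm by chaperones, moves to the nucleus when a ligand binds, and pairs with ARNT on DNA elements near genes of xenobiotic metabolism. In the intestine it responds to dietary and microbial compounds and acts on barrier function and on crypt stem cells. Lovastatin, a statin, blocks the synthesis of mevalonate, from which cells build cholesterol and the prenyl groups that anchor Ras and Rab proteins in membranes.

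With 1 transcript counted per gene, the lovastatin libraries held 14124516 to 16297645 counts each and the SGA360 libraries 12332642 to 16868200. In each library a count of 3, the limit that a count of 0 allows, corresponded to 0.178 to 0.243 CPM of the unscaled library totals, whereas the levels below are CPM with TMM factors. These limits cover counting error only. The libraries of a group were close to each other, with a biological coefficient of variation of 2.16%, and the closest match of each library lay within its group. The epithelial and enterocyte markers of the labelled cell line were abundant: the summed level of 14 Caco-2 and enterocyte genes was 9325 to 9444 CPM with lovastatin alone and 6767 to 7209 CPM with SGA360. The exceptions were KRT20, at 0.301 CPM or below, and the sucrase gene SI, at 0.965 CPM or below, in the 6 libraries. Several defining markers of other cell types were near 0. At most 6 counts over the 6 libraries were found for 6 of 8 enteroendocrine markers, 3 of 5 Paneth cell, 3 of 5 tuft cell and 3 of 5 endothelial markers. The leukocyte gene CD3E and the fibroblast genes COL1A2 and DCN were at that level as well. Other members of these lists were expressed in all 6 libraries. The leukocyte genes CSF1R and CD68 stood at 4.65 to 7.54 and 4.43 to 6.46 CPM. The fibroblast gene PDGFRB stood at 7.54 to 9.46 CPM and the enteroendocrine gene CHGB at 9.43 to 12.2 CPM. Summed goblet cell markers stood at 118.8 to 129.0 CPM with lovastatin alone and 112.6 to 113.1 CPM with SGA360, and summed fibroblast markers at 51.7 to 55.4 and 36.8 to 39.5 CPM. Most of each sum came from 1 gene. AGR2 stood at 111.3, 121.6 and 118.0 CPM with lovastatin alone and at 106.3, 106.8 and 107.1 CPM with SGA360, whereas MUC2 was at 0.195 CPM or below. COL1A1 stood at 43.4, 45.1 and 43.8 CPM and at 30.9, 28.5 and 31.1 CPM. The part of these markers in the results below was not tested. In bulk RNA, fewer cells of a type and less RNA per cell cannot be told apart.

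SGA360 moved most of the measured transcriptome by small amounts. Of 14663 genes tested with edgeR's quasi-likelihood test, 9203 (62.8%) passed a Benjamini-Hochberg adjusted p of 0.05 and are called changed below. Of these, 4601 (31.4% of the genes tested) were higher and 4602 (31.4%) were lower. With scaling to library totals only, 6459 were higher and 3136 lower, and the median over all tested genes shifted from 0.02 to 0.14 in log2. The median size of a called change was 0.35 on the log2 scale. A change of at least 2-fold was found upward for 461 genes (3.14%) and downward for 209 (1.43%), and one of at least 4-fold upward for 46 and downward for 11. The values of the 2 groups did not overlap in 66.3% of the genes tested. The counts for gene lists below are to be read against the 31.4% called in each direction and against the level of the genes. The share called lower ran from 6.50% below 1 CPM to 61.6% above 100 CPM. The part of expression level in the list counts was not tested. A gene is said to have risen or fallen only if its adjusted p in this test was under 0.05, and changes are log2 fold changes of SGA360 minus lovastatin alone with their SE unless a fold is named. Levels given per library or as mean ± SD belong to called genes unless stated otherwise.

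**Figure D1:**
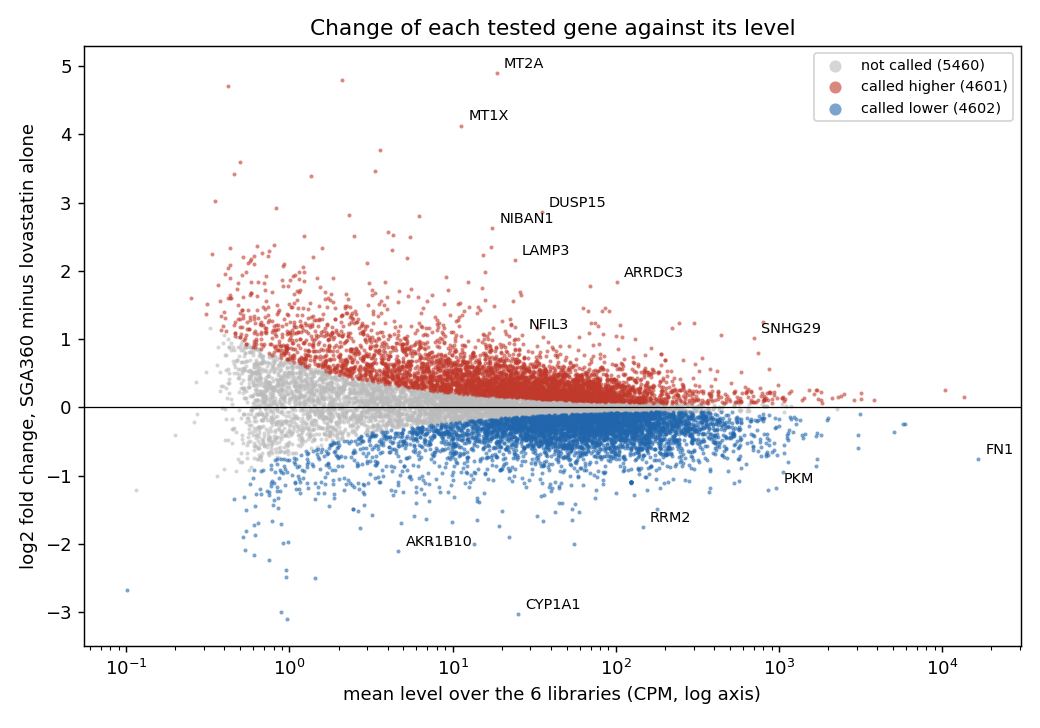
Log2 fold change of SGA360 minus lovastatin alone (vertical axis) against mean level over the 6 libraries in CPM (horizontal log axis), 1 point per tested gene, coloured by call. The 2 metallothioneins MT2A and MT1X lie far above the other labelled genes and CYP1A1 far below, while most called genes lie within 1 unit of 0.

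The direction of change followed the level of expression. Among the 2383 genes with a mean above 100 CPM, 61.6% were lower and 21.7% higher, with a median of −0.15. Among the 2276 genes between 1 and 5 CPM, 10.5% were lower and 31.5% higher, with a median of 0.23. Rises of at least 2-fold were gathered at low levels, with 140 of 461 below 1 CPM, 206 between 1 and 5 CPM and 10 above 100 CPM. Falls of at least 2-fold numbered 42, 59 and 28 in the same classes. A gene at a low level can pass the low-count filter through only the group in which it is high. The part of that filter in the counts at low levels was not tested. Of the most abundant messages, FN1, which encodes the matrix protein fibronectin, went from 20803 ± 759.6 to 12301 ± 129.9 CPM (mean ± SD, n = 3 each) and fell by 0.76 on the log2 scale. As a share of all counts, FN1 took 1.90, 2.03 and 1.98% in the lovastatin libraries and 1.271, 1.254 and 1.256% in the SGA360 libraries. Of the gene classes of the annotation, 139 of 362 transcribed pseudogenes were higher and 27 lower, with a median of 0.27, and 338 of 1200 long non-coding RNAs were higher and 163 lower, with a median of 0.17. MicroRNA and snoRNA genes went the other way, with 3 of 98 and 6 of 86 higher, 20 and 16 lower, and medians of −0.16 and −0.18. Most such genes lie within other genes, whose reads they can share. The 12884 protein-coding genes had a median of 0.01.

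**Figure D2:**
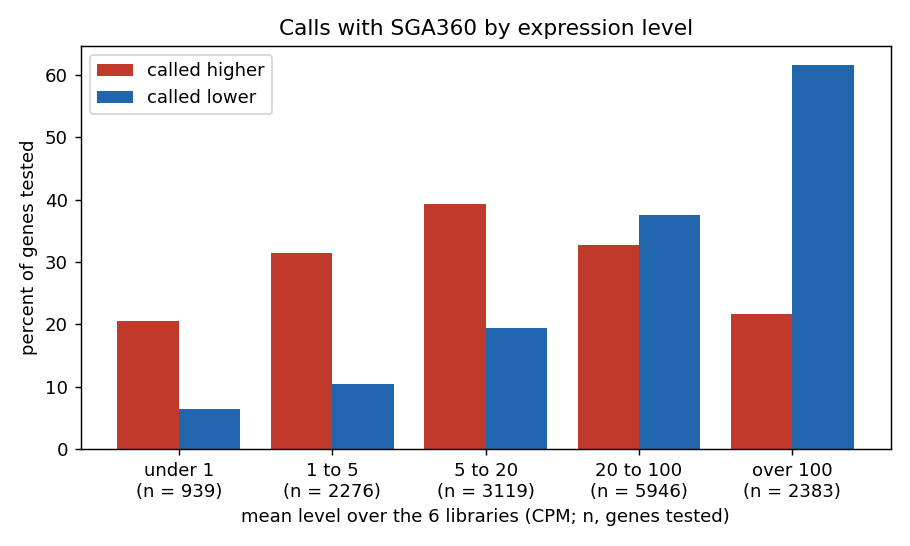
Percent of tested genes called higher (red) or lower (blue) with SGA360, by mean level over the 6 libraries in CPM, with the number of genes tested under each class. The share called lower grows from 6.50% below 1 CPM to 61.6% above 100 CPM.

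The metallothioneins, small proteins that bind zinc and copper through clustered cysteines, held the largest rises. Their genes are known targets of the zinc sensor MTF1, which binds metal response elements. The letters of that element are shown in capitals in 4 promoters, 250 bases up to the annotated start of transcription, 5′ to 3′ on the gene's strand, from RefSeq on GRCh38.p14. The promoters are those of 2 metallothioneins and 2 zinc exporters picked because they rose, and that of SLC30A4, which also rose, is not shown. The part of MTF1 in these rises was not tested.
MT2A, chr16:56608334-56608583, plus strand: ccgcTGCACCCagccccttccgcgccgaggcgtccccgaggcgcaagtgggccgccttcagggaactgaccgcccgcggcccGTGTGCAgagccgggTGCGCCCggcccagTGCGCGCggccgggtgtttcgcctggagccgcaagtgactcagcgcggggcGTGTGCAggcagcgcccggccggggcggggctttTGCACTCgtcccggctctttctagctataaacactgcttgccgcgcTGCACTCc
MT1X, chr16:56682220-56682469, plus strand: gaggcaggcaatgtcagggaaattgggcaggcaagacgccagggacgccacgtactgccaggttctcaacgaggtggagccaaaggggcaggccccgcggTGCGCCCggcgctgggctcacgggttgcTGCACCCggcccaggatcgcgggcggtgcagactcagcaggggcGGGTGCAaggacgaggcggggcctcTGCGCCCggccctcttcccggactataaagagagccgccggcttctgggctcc
SLC30A2, chr1:26046119-26046368, minus strand: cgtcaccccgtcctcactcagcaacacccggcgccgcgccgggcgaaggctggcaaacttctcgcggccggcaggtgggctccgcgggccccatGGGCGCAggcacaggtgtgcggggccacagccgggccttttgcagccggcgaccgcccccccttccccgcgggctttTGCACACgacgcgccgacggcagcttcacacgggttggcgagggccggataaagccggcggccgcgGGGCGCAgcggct
SLC30A1, chr1:211579162-211579411, minus strand: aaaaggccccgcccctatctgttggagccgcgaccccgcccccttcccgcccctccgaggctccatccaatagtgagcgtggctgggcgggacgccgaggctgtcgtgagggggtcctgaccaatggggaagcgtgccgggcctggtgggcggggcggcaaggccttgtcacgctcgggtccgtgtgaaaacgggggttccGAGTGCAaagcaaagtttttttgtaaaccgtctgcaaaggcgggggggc

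The motif searched was TGCACNC or TGCGCNC on both strands, so that a match to the minus strand appears as its reverse complement. The MT2A promoter held 7 matches and MT1X 4, SLC30A2 held 3 and SLC30A1 held 1. At least 4 matches were found in 0.366% of the 27305 promoters of that table, and at least 1 in 24.7%. Among the promoters of genes tested, 33.0% held at least 1, and so did 7 of 18 (38.9%) of those of zinc transport and MTF1. MT1E, MT1F and MT1G have no entry there, so the metallothioneins shown are those with one. A match describes letters only and is not a shown binding site.

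MT2A was measured at 1.28, 0.676 and 1.56 CPM in the lovastatin libraries and at 32.9, 34.5 and 40.9 CPM in the SGA360 libraries. Every SGA360 library stood far above every lovastatin library, a 29.8-fold difference (adjusted p = 1.14e-41). MT1X stood at 0.674, 1.502 and 1.49 CPM and rose to 21.3, 21.5 and 21.3 CPM, and MT1F at 1.35, 1.58 and 1.69 CPM and rose to 9.71, 11.1 and 11.7 CPM. Neither pair of groups overlapped, and the folds were 17.5-fold and 6.97-fold. MT1E and MT1G were near 0 with lovastatin alone, at 0.337, 0.0751 and 0 CPM and at 0, 0.0751 and 0 CPM. With SGA360 they stood at 3.86, 4.06 and 4.25 CPM and 0.784, 0.870 and 0.787 CPM, above every lovastatin library. MT1H had no count in the 3 lovastatin libraries and 11, 14 and 20 counts in the SGA360 libraries. That is at least 15.2-fold higher, against the floor of 3 counts over the group. All 5 tested members were higher, and MT1A, MT1B, MT1H, MT1M, MT3 and MT4 did not pass the filter on low counts. MT1G passed it only through the SGA360 libraries, since it stood at 0.281 CPM or below in all others. Its calls, also against SGA315, are therefore not independent of the filter and add no support. Metallothionein genes are near copies of each other, so the split of reads among them is uncertain. All 5 were also higher with SGA360 than with SGA315, where 42.7% of all genes tested differed in either direction. MT2A stood at 9.08, 8.49 and 6.66 CPM with SGA315, and the difference of the ligands was 2.14 ± 0.089 on the log2 scale (adjusted p = 6.86e-31).

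Of the zinc carriers, SLC30A2, which loads zinc into vesicles, moved most. It stood at 1.35, 1.88 and 2.40 CPM with lovastatin alone and at 8.20, 8.93 and 8.74 CPM with SGA360. The groups did not overlap, and the level was 4.56-fold higher. SLC30A1, the zinc exporter of the plasma membrane and a known MTF1 target, went from 24.2 ± 1.85 to 34.9 ± 1.11 CPM and rose by 0.53 ± 0.062, and SLC30A4, a further vesicular carrier, rose by 1.37 ± 0.17. The importer gene SLC39A14 fell by 0.40 ± 0.026 and SLC39A10 fell by 0.34 ± 0.045. MTF1 itself did not pass, at −0.11 ± 0.067 (adjusted p = 0.145). Of the 20 tested genes of zinc transport and MTF1, 7 were higher and 5 lower, near the background, with a median of −0.02 (0.09 when only library totals were scaled).

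**Figure D3:**
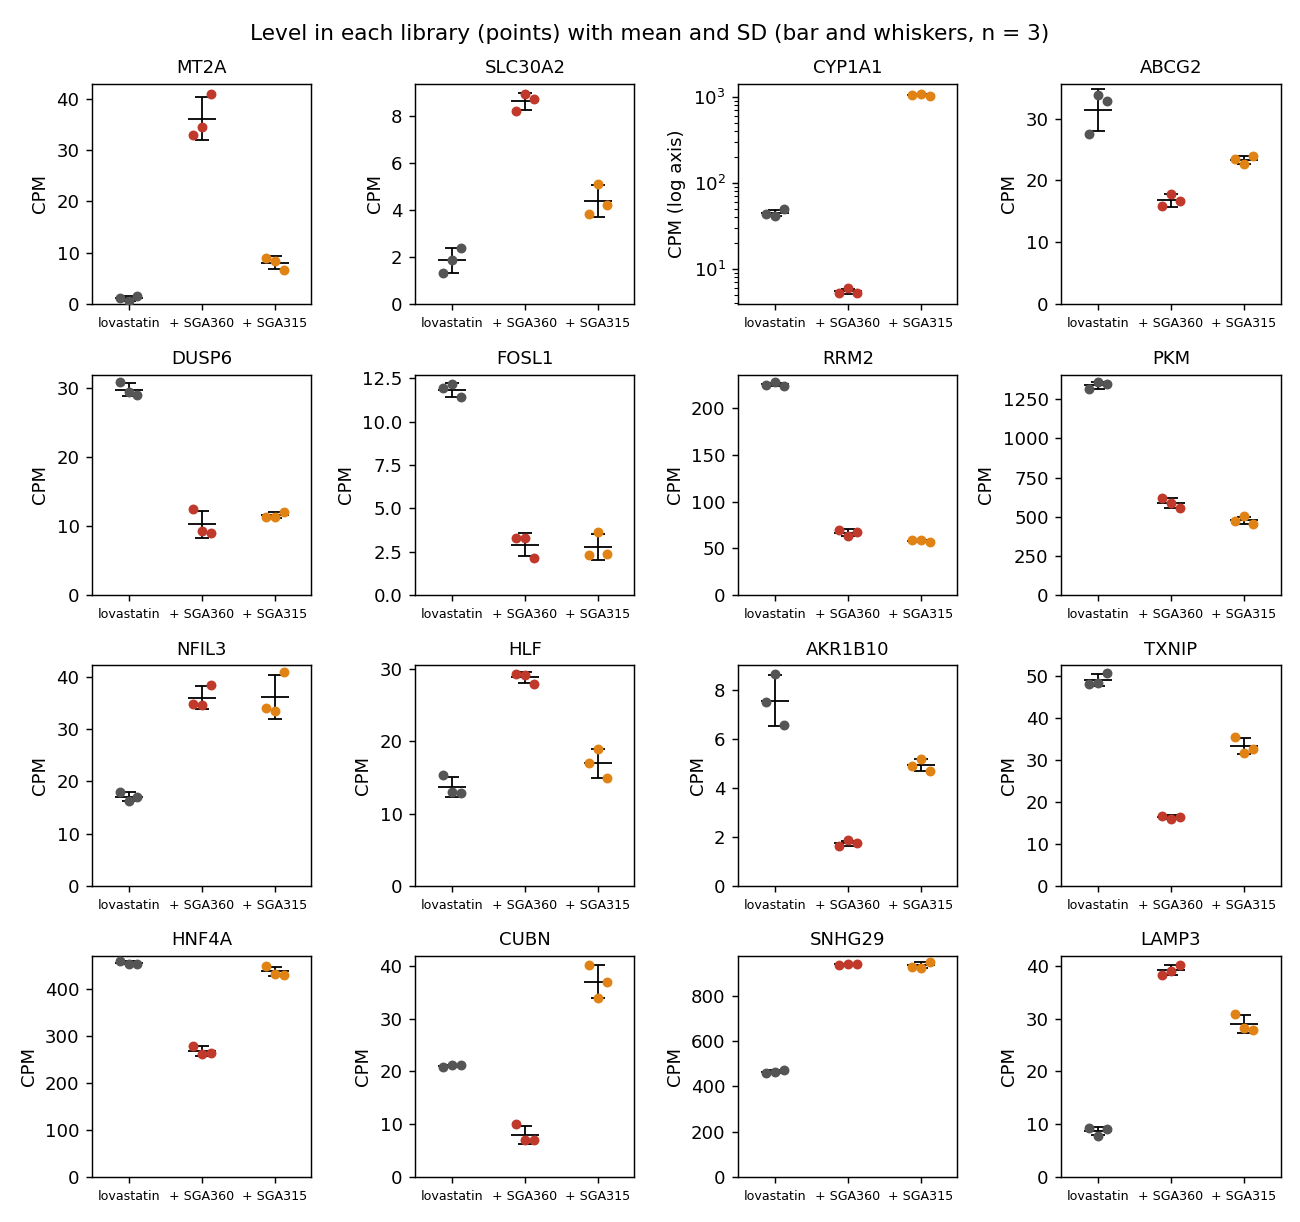
Level of 16 genes in CPM in each of the 9 libraries, by group (lovastatin alone, with SGA360, with SGA315), with mean and SD of 3 libraries, and a log axis for CYP1A1. MT2A, SLC30A2, NFIL3, HLF, SNHG29 and LAMP3 are higher in every SGA360 library than in any lovastatin library, and the other 10 genes are lower in every SGA360 library than in any lovastatin library.

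Most AHR targets were lower with SGA360. The promoter of CYP1A1, which encodes a cytochrome P450 and is the classical AHR target, is shown with the letters GCGTG, the core of the xenobiotic response element, in capitals.
CYP1A1, chr15:74725529-74725778, minus strand: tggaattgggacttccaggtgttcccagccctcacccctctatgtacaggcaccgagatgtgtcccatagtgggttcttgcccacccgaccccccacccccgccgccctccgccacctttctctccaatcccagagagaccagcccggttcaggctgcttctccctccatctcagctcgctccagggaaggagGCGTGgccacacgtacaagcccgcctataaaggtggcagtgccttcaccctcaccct

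These 250 bases end at the annotated start and hold 1 match, counting both strands, 57 bases before the start. The same letters are found in 31.9% of all promoters of this length in the table and in 44.7% of those of the genes tested. CYP1A1 read 43.7, 41.4 and 48.9 CPM with lovastatin alone, 5.25, 5.92 and 5.19 CPM with SGA360 and 1042, 1088 and 1031 CPM with SGA315, so that the 3 groups were apart without overlap. The difference between the ligands was −7.58 ± 0.050 on the log2 scale (adjusted p = 2.23e-79). ABCG2, an efflux pump of the apical membrane, went from 27.5, 33.7 and 32.8 CPM to 15.8, 17.8 and 16.7 CPM, and the groups did not overlap. ARNT, the DNA-binding partner of AHR, rose by 0.40 ± 0.053. Of the 11 tested genes of the receptor, its partners and its targets, 1 was higher and 9 were lower, with a median of −0.89, and 6 were lower with scaling to library totals only.

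ERK signalling leaves a mark on a small set of genes that ERK activity itself turns on and whose products switch the pathway off again, among them the phosphatases of the DUSP family and the Sprouty proteins. Most members of a wider list fell, which also holds further DUSP genes, ETS factor genes and EPHA2. Not every member of that list is an ERK-induced inhibitor. DUSP6, the cytoplasmic phosphatase of ERK, stood at 30.8, 29.4 and 28.9 CPM with lovastatin alone and at 12.5, 9.22 and 9.05 CPM with SGA360. The nuclear ERK phosphatase gene DUSP5 went from 58.6, 67.2 and 68.01 CPM to 25.3, 24.4 and 23.9 CPM. In both genes each SGA360 library lay below each lovastatin library, with levels 2.87-fold and 2.63-fold lower. The Sprouty gene SPRY4 fell by 1.10 ± 0.068 and SPRY2 fell by 0.65 ± 0.055, and the ETS factor gene ETV5 fell by 1.04 ± 0.073. Against this direction, SPRY1 rose by 0.33 ± 0.097 and DUSP15 rose by 2.86 ± 0.069. DUSP15 stood at 9.36, 8.34 and 7.92 CPM with lovastatin alone and at 60.5, 64.8 and 60.4 CPM with SGA360. Of the 22 tested genes of this wider list, 3 were higher and 14 lower, with a median of −0.32.

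The AP-1 and immediate early factors, which cells make within minutes of a growth signal, were mostly lower in the same comparison. FOS stood at 8.35, 8.34 and 9.34 CPM with lovastatin alone and at 2.78, 2.90 and 2.99 CPM with SGA360, without overlap. EGR1, a zinc finger factor induced by ERK, went from 39.03 ± 2.14 to 17.5 ± 0.797 CPM and fell by 1.16 ± 0.065. MYC, which drives growth and ribosome production, went from 211 ± 6.55 to 115 ± 2.01 CPM. Of 17 tested members, 12 were lower and 1 was higher, ATF3, a stress-induced factor that rose by 0.32 ± 0.061. The median was −0.40. EGR1 was 1.74-fold higher with SGA360 than with SGA315 (adjusted p = 9.73e-12), while the difference for FOS was −0.17 ± 0.18 (adjusted p = 0.474) and for DUSP6 −0.16 ± 0.10 (adjusted p = 0.203).

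Upstream of ERK, receptors and Ras regulators moved in both directions. RASGRP1, an exchange factor that loads Ras with GTP, stood at 4.45, 5.56 and 6.16 CPM with lovastatin alone and at 24.9, 26.2 and 25.5 CPM with SGA360. Its relative RASGRP3 went from 4.51, 4.88 and 4.80 CPM to 9.53, 10.8 and 10.4 CPM, and neither gene's groups overlapped. The exchange factor gene SOS1 fell by 0.41 ± 0.039, and was 2.99-fold lower than with SGA315 (adjusted p = 1.06e-46). Of the receptors, PDGFRA went from 361 ± 3.18 to 172 ± 5.59 CPM, and FGFR2 from 254 ± 5.10 to 341 ± 4.05 CPM. The ephrin receptor gene EPHA2 fell by 0.92 ± 0.045. Of 20 tested receptor genes, 5 were higher and 8 lower, with a median of −0.05 (0.06 when only library totals were scaled). For 18 Ras proteins and regulators the numbers were 5 and 6, with a median of −0.10 and of 0.01 with library totals only.

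Wnt signalling keeps intestinal stem cells dividing, and in Caco-2 cells a mutation in its destruction complex leaves the pathway active. Most of its targets were lower with SGA360. LGR5, a receptor that marks crypt stem cells, went from 54.4, 54.98 and 53.7 CPM to 18.3, 15.5 and 17.7 CPM. NKD1, a feedback inhibitor, went from 57.8, 54.3 and 51.4 CPM to 26.2, 25.5 and 22.9 CPM. Neither gene's groups overlapped. The feedback gene AXIN2 fell by 0.66 ± 0.043, the adhesion receptor gene CD44 fell by 0.77 ± 0.050 and the progenitor factor gene SOX9 fell by 0.89 ± 0.036. SOX9 was 1.70-fold lower with SGA360 than with SGA315 (adjusted p = 1.03e-27). PROM1, a surface marker used for progenitors, rose by 0.11 ± 0.027. Of 19 tested Wnt targets and stem cell markers, 1 was higher and 14 were lower, with a median of −0.64. ID1, an inhibitor of differentiation factors that BMP signals induce, fell by 0.56 ± 0.050 yet was 2.91-fold higher than with SGA315 (adjusted p = 2.04e-29).

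The machinery of DNA replication fell almost as a whole. Of 37 tested genes of replication and nucleotide supply, 35 were lower and 1 was higher, with a median of −0.67. RRM2, the inducible subunit of the enzyme that makes deoxynucleotides, stood at 225, 228 and 224 CPM with lovastatin alone and at 70.2, 62.8 and 67.8 CPM with SGA360. UHRF1, which guides DNA methylation to new strands, went from 80.3, 84.7 and 81.4 CPM to 34.9, 29.4 and 27.6 CPM. The groups of both genes were apart, by 3.38-fold and 2.66-fold. All 6 subunits of the MCM2 to MCM7 helicase that unwinds the origin were lower, between −0.91 ± 0.033 for MCM2 and −0.67 ± 0.035 for MCM6, with −0.86 ± 0.032 for MCM3, −0.89 ± 0.034 for MCM4, −0.88 ± 0.046 for MCM5 and −0.85 ± 0.031 for MCM7. RFC4, a subunit of the clamp loader, was the member that rose, by 0.14 ± 0.055, a call that was lost with DESeq2 (adjusted p = 0.13), without lovastatin replicate 1 (adjusted p = 0.265) and without SGA360 replicate 3 (adjusted p = 0.141).

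Several regulators of the entry to S phase were lower as well. E2F8, a repressor of the E2F family, went from 54.01 ± 2.43 to 24.02 ± 0.957 CPM, and E2F1, an activator, from 108 ± 1.06 to 65.7 ± 2.94 CPM. The cyclin E gene CCNE1 fell by 0.87 ± 0.068, while the CDK inhibitor gene CDKN1A, a p53 target, went from 5.19, 3.98 and 5.32 CPM to 2.53, 1.86 and 2.52 CPM, without overlap. The D-type cyclin gene CCND1 fell by 0.34 ± 0.035, and was 1.76-fold higher than with SGA315 (adjusted p = 3.73e-28). Of 25 G1 genes, 4 were higher and 12 lower, with a median of −0.17. Of 17 p53 targets, 4 were higher and 5 lower, or 10 and 4 with scaling to library totals only.

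In mitosis and at the kinetochore, 29 of 30 tested genes were lower and 0 higher, with a median of −0.45. PTTG1, the inhibitor of separase, fell by 0.83 ± 0.047, and CCNB1, the mitotic cyclin, went from 267 ± 6.05 to 167 ± 4.79 CPM. TOP2A, which untangles chromosomes, fell by 0.41 ± 0.029, and CCNB2 fell by 0.24 ± 0.039. In homologous recombination and the replication checkpoint, 18 of 23 were lower and 3 higher, with a median of −0.33. CLSPN, the adaptor that activates CHEK1, fell by 0.86 ± 0.058, whereas the kinase genes ATM and ATR rose by 0.26 ± 0.038 and 0.42 ± 0.056. The letters TTTNNCGC, the core of the E2F site, were searched over 250 bases on both strands. They were found in 15 of 33 promoters of the replication list (45.5%) and in 2 of 25 of the mitosis list (8.0%). The share was 8.96% in the promoters of all genes tested. RRM2 and MCM2 held 0 matches, and PCNA held 1. A match describes letters only, and the part of these letters in the falls was not tested.

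Glycolysis turns glucose into pyruvate and, in colon cancer cells, largely into lactate. Its abundant enzymes were lower with SGA360. PKM, pyruvate kinase, stood at 1316, 1359 and 1346 CPM with lovastatin alone and at 621, 589.9 and 555 CPM with SGA360. PGAM1, phosphoglycerate mutase, went from 483, 505 and 485 CPM to 269, 267 and 252 CPM. For both, the SGA360 libraries lay below all lovastatin libraries. TPI1 fell by 0.72 ± 0.028, ALDOA fell by 0.70 ± 0.027 and ENO1 fell by 0.66 ± 0.028, and the lactate carrier gene SLC16A1 fell by 0.72 ± 0.031. The rises included those of HK1, a hexokinase, by 0.44 ± 0.044, and ENO2, an enolase, by 0.40 ± 0.057. Of 21 tested genes, 3 were higher and 16 lower, with a median of −0.57. Hypoxia targets outside glycolysis did not share this direction: 9 of 19 were higher and 7 lower, with a median of −0.02 (0.10 with library totals only). PDK1, which diverts pyruvate from the mitochondrion, rose by 0.51 ± 0.081, and CA12, a carbonic anhydrase, fell by 0.85 ± 0.14.

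In the respiratory chain 63 of 75 tested nuclear-encoded subunits were lower and 4 higher, with a median of −0.36. The largest falls were those of COX7B, by 0.85 ± 0.046, COX6B1, by 0.81 ± 0.039, and NDUFB3, by 0.81 ± 0.060. COX7B stood at 79.8, 81.3 and 87.4 CPM with lovastatin alone and at 48.3, 45.8 and 43.3 CPM with SGA360, without overlap. The proteins of the mitochondrial ribosome, which translate the remaining subunits, were lower in 44 of 76 cases and higher in 10, with a median of −0.17. When only library totals were scaled, 27 were lower and 17 higher, with a median of −0.05.

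All 9 libraries received a statin, and the sterol pathway is the one it blocks. Of 21 enzymes from acetyl-CoA to cholesterol, 17 were lower with SGA360, 1 was higher and 3 were not called. The median was −0.56. EBP, the sterol isomerase, had the largest fall, from 109.9 ± 2.40 to 60.7 ± 1.64 CPM. NSDHL, a sterol dehydrogenase, went from 72.7 ± 1.60 to 41.9 ± 1.003 CPM. Of the 21 synthesis genes, 19 differed from SGA315 past the same threshold, all upward, against 42.7% of all genes tested in either direction. LSS, which closes the sterol ring, was higher than with SGA315 by 0.43 ± 0.032, although LSS fell by 0.67 ± 0.030 from lovastatin alone.

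Fatty acid and triglyceride genes moved in both directions. SCD, the desaturase, fell by 0.40 ± 0.026, the acetate-activating enzyme gene ACSS2 fell by 0.60 ± 0.033 and AGPAT2, an acyltransferase, fell by 0.69 ± 0.050. GPAM, which starts glycerolipid synthesis at the mitochondrion, rose by 0.79 ± 0.032, and ACACB, which makes malonyl-CoA there, rose by 0.38 ± 0.061. MOGAT2, which acylates monoacylglycerol, had the largest rise of the list at low levels, from 0.269, 0.225 and 0.130 CPM to 0.845, 0.638 and 0.472 CPM. Of 22 tested genes, 7 were higher and 13 lower, with a median of −0.18. In fatty acid oxidation and ketone production, CREB3L3, a liver and gut transcription factor of fasting metabolism, went from 6.13, 5.78 and 7.14 CPM to 2.78, 2.67 and 3.38 CPM, while PPARA, the receptor that turns on this program, went from 29.1 ± 1.19 to 41.6 ± 3.03 CPM and rose by 0.51 ± 0.060. CREB3L3 was also below its level with SGA315, with a log2 difference of −1.68 ± 0.14. Of 15 genes, 2 were higher and 8 lower, with a median of −0.10 (0.01 when only library totals were scaled).

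Lipoprotein genes, which enterocytes use to export lipid, were mostly lower. APOB, the backbone of chylomicrons, went from 1031 ± 35.9 to 658 ± 24.7 CPM, and APOA4 from 5.12, 4.73 and 5.13 CPM to 2.29, 2.90 and 3.15 CPM, without overlap. APOA2 fell by 0.55 ± 0.041 and the fatty acid binding protein gene FABP1 fell by 0.34 ± 0.066, and FABP1 stood 2.40-fold below its level with SGA315 (adjusted p = 9.45e-29). APOE rose by 0.14 ± 0.026. Of 13 genes, 2 were higher and 9 lower, with a median of −0.34.

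Genes of cytosolic protein quality control were mostly lower. HSPA8, the constitutive HSP70, went from 2179.5 ± 8.24 to 1201 ± 30.6 CPM, and HSP90AA1, the inducible HSP90, from 1387 ± 6.25 to 719.8 ± 2.71 CPM. The co-chaperone gene DNAJA1 stood at 214, 217 and 216 CPM with lovastatin alone and at 124, 124 and 132 CPM with SGA360, without overlap. HSPA4L, an HSP110 relative, rose by 0.77 ± 0.11. Of 17 heat shock genes, 2 were higher and 12 lower, with a median of −0.40. In the proteasome, 31 of 35 subunits were lower, with PSMD2 down by 0.63 ± 0.031 and PSMB3 by 0.58 ± 0.035, and 1 was higher, PSMB10, a subunit of the immunoproteasome, by 0.36 ± 0.076. The median was −0.33.

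Chaperones of the endoplasmic reticulum divided into a falling and a rising group. The folding factors CALR and PDIA3 fell by 0.58 ± 0.026 and 0.44 ± 0.029, and CRELD2 fell by 0.67 ± 0.060. Stress sensors and degradation factors were among the rises: ERN1, the stress sensor IRE1, rose by 0.73 ± 0.052, ATF6 rose by 0.48 ± 0.045 and SEL1L, part of the ubiquitin ligase that clears misfolded proteins, rose by 0.46 ± 0.031. Of 20 tested members, 7 were higher and 13 lower, with a median of −0.14. With scaling to library totals only the numbers were 7 and 7.

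Genes of the ATF4 program, which answers amino acid shortage and stress, were more often higher than lower. NIBAN1, a stress-induced scaffold gene, stood at 5.12, 4.36 and 5.13 CPM with lovastatin alone and at 30.4, 30.97 and 28.96 CPM with SGA360. NUPR1, a stress-induced nuclear protein, went from 0.808, 0.601 and 0.714 CPM to 3.14, 3.83 and 5.75 CPM, and CTH, which makes cysteine, from 9.43, 11.6 and 10.97 CPM to 16.8, 17.3 and 17.6 CPM. In none of these did the groups overlap. SLC3A2, the heavy chain of amino acid exchangers, rose by 0.79 ± 0.028, while its light chain partner SLC7A5 fell by 0.56 ± 0.028 and the glutamine carrier gene SLC38A2 fell by 0.60 ± 0.026. ATF4 itself fell by 0.22 ± 0.027. Of 26 tested members, 15 were higher and 9 lower, with a median of 0.28.

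Translation genes moved apart by compartment and role. Genes of the cytosolic ribosome shifted up by small amounts, 67 of 82 being higher and 7 lower, with a median of 0.14, for example RPL26 by 0.32 ± 0.028 and RPS29 by 0.26 ± 0.034. These genes have many processed copies, and reads may be shared with them. The factors that build ribosomes in the nucleolus were lower in 19 of 26 cases and higher in 2, with a median of −0.26. NOP56 fell by 0.65 ± 0.031, and NCL, nucleolin, went from 1091 ± 14.4 to 765 ± 7.47 CPM. Aminoacyl-tRNA synthetases were split, with 13 higher and 13 lower of 35 (21 and 9 with library totals only), from the mitochondrial LARS2 at −0.58 ± 0.048 to WARS1 at 0.44 ± 0.030.

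Antioxidant genes were mostly lower. TXNIP, which binds thioredoxin and limits glucose uptake, stood at 48.2, 48.4 and 50.7 CPM with lovastatin alone and at 16.7, 15.8 and 16.4 CPM with SGA360. The groups did not overlap, the level was 3.01-fold lower, and it was also 2.04-fold below SGA315 (adjusted p = 3.16e-21). TXNRD1, thioredoxin reductase, fell by 0.66 ± 0.027, and the sestrin gene SESN3 rose by 0.79 ± 0.043. Of 15 genes of the peroxiredoxin and thioredoxin system, 2 were higher and 12 lower, with a median of −0.39. Of 21 genes of glutathione and NRF2, 2 were higher and 18 lower, with a median of −0.33. NFE2L2, which encodes NRF2, fell by 0.47 ± 0.039, its inhibitor gene KEAP1 fell by 0.58 ± 0.042, and the ferritin gene FTH1 rose by 0.26 ± 0.027.

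Aldo-keto reductases, which reduce aldehydes and steroids, held some of the largest falls. AKR1B10, an intestinal retinal reductase, stood at 7.48, 8.64 and 6.55 CPM with lovastatin alone and at 1.63, 1.86 and 1.73 CPM with SGA360, without overlap, 4.30-fold lower. AKR1C1 went from 137, 139.9 and 146 CPM to 55.4, 54.4 and 69.03 CPM, but the AKR1C genes are near copies and their counts are uncertain. Both were below SGA315 as well, with log2 differences of −1.50 ± 0.18 and −1.30 ± 0.047. Of 10 tested members, 1 was higher, AKR1A1, and 7 were lower, with a median of −0.35. In xenobiotic metabolism 4 of 17 genes were higher and 7 lower, with a median of −0.15, and 6 each way when only library totals were scaled. ABCC2, an apical conjugate exporter, fell by 0.64 ± 0.028, and ABCC3, its basolateral counterpart, rose by 0.74 ± 0.048.

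The circadian clock is a loop in which CLOCK and BMAL1 turn on the PER and CRY repressors and a set of output factors. None of its members fell and most rose. HLF, an output factor of the PAR family, stood at 15.3, 12.9 and 12.8 CPM with lovastatin alone and at 29.3, 29.2 and 27.9 CPM with SGA360. NFIL3, the repressor that opposes that family, went from 17.98, 16.3 and 17.00 CPM to 34.9, 34.7 and 38.5 CPM, and CIART, a repressor of CLOCK and BMAL1, from 1.82, 2.18 and 1.36 CPM to 5.25, 4.29 and 4.64 CPM. None of these groups overlapped. BMAL1 rose by 0.65 ± 0.082, BHLHE40, a repressor of the loop, rose by 0.62 ± 0.076, and RORA, an activator of BMAL1, rose by 0.51 ± 0.083. PER1 did not pass, at 0.07 ± 0.075 (adjusted p = 0.415) and PER2 did not pass, at 0.16 ± 0.079 (adjusted p = 0.0655), and both were called higher when only library totals were scaled. Of 17 tested members, 12 were higher and 0 lower, with a median of 0.51. 2 of the named members also exceeded their level with SGA315, HLF by 0.77 ± 0.073 and RORA by 0.57 ± 0.084, while NFIL3 differed by −0.01 ± 0.060 (adjusted p = 0.927). All libraries were harvested after 48 h, so phase and level of the clock cannot be told apart.

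Among nuclear receptors, NR3C1, the glucocorticoid receptor, went from 30.7, 30.3 and 32.9 CPM to 54.8, 49.8 and 57.1 CPM, without overlap, and ESRRG, an orphan receptor of oxidative metabolism, from 9.63, 7.59 and 8.63 CPM to 3.50, 2.73 and 3.70 CPM, also without overlap. Of 19 tested members, 7 were higher and 4 lower, with a median of 0.07 that was 0.02 without SGA360 replicate 2. When only library totals were scaled, 10 were higher and 2 lower, with a median of 0.19. Of the KLF factors, KLF15, a factor of fasting metabolism that glucocorticoids induce, went from 7.27, 6.31 and 5.84 CPM to 16.3, 17.3 and 15.8 CPM, 2.56-fold higher without overlap. KLF5, which maintains crypt progenitors, fell by 0.59 ± 0.036. The numbers for 13 KLF genes were 2 higher and 6 lower, with a median of −0.06 (0.05 when only library totals were scaled).

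HNF4A, the nuclear factor that holds the enterocyte program, stood at 461, 455 and 455 CPM with lovastatin alone, at 279.9, 262 and 264 CPM with SGA360 and at 450.2, 434 and 431 CPM with SGA315. The SGA360 libraries lay below all others, with log2 differences of −0.77 ± 0.028 from lovastatin alone and −0.71 ± 0.028 from SGA315. GATA6 went from 249 ± 5.83 to 153 ± 4.44 CPM. CDX2, the intestinal homeobox factor, did not pass, at 0.08 ± 0.039 (adjusted p = 0.0683), was called higher when only library totals were scaled, and was lower than with SGA315 (log2 difference −0.55 ± 0.036). Of 14 tested factors, 3 were higher and 6 lower, with a median of −0.13, and 5 and 4 when only library totals were scaled.

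The brush border genes, which encode the digestive enzymes and carriers of the enterocyte surface, showed steep falls and clear rises. CUBN, the cobalamin receptor, stood at 20.8, 21.3 and 21.2 CPM with lovastatin alone, at 9.95, 6.96 and 7.01 CPM with SGA360 and at 40.2, 33.95 and 36.9 CPM with SGA315, with no overlap between any 2 groups. Its endocytic partner LRP2 went from 722 ± 15.2 to 335 ± 16.7 CPM and fell by 1.10 ± 0.029. SLC5A1, the sodium and glucose carrier, went from 2.49, 2.48 and 2.40 CPM to 0.302, 0.638 and 0.315 CPM, and LCT, lactase, from 1.28, 1.65 and 1.88 CPM to 0.362, 0.174 and 0.394 CPM. Both fell to levels of a few counts per library. SLC15A1, the peptide carrier, rose from 6.33, 5.26 and 5.13 CPM to 11.6, 11.5 and 10.6 CPM, and SLC2A2, a glucose carrier, from 1.48, 1.95 and 2.47 CPM to 3.92, 4.35 and 4.88 CPM. Over the whole list, 7 of 17 were higher and 7 lower, with a median of −0.22. ALPI and ANPEP, an alkaline phosphatase and an aminopeptidase, stood below SGA315, with log2 differences of −1.22 ± 0.082 and −1.17 ± 0.072, although ALPI rose by 0.36 ± 0.10 from lovastatin alone.

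At the junctions, CLDN2, a claudin that forms cation pores, went from 9.09, 6.91 and 9.08 CPM to 3.44, 3.48 and 3.78 CPM, without overlap, and CLDN3, a sealing claudin, from 15.02, 14.3 and 15.4 CPM to 22.4, 20.1 and 24.95 CPM, also apart. F11R fell by 0.48 ± 0.027 and CLDN4 fell by 0.42 ± 0.033, whereas OCLN did not pass, at 0.03 ± 0.030 (adjusted p = 0.363) but was called higher when only library totals were scaled. Of 15 members, 4 were higher and 7 lower, with a median of −0.07 (0.05 when only library totals were scaled). Genes of adhesion were mostly lower, 9 of 11 against 1 higher, with a median of −0.50. ITGA6, the laminin receptor subunit, fell by 0.74 ± 0.038, and CDH17, the intestinal cadherin, fell by 0.61 ± 0.029. SNAI1, a repressor of E-cadherin, fell by 0.89 ± 0.071, and CDH1, E-cadherin itself, fell by 0.29 ± 0.027. Of the 14 Caco-2 and enterocyte markers, 1 was higher and 10 were lower of 13 tested, and the part of this shift in the lists above was not tested. LYZ, lysozyme, a Paneth cell marker, went from 9.23, 11.3 and 10.6 CPM to 3.68, 4.12 and 4.25 CPM.

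Butyrophilins of the gut steer γδ T cells that lie in the epithelium. BTNL8 went from 27.5, 31.8 and 29.7 CPM to 8.63, 9.69 and 8.26 CPM and BTN1A1, the milk fat butyrophilin, from 20.5, 24.1 and 21.02 CPM to 5.49, 6.44 and 4.09 CPM, without overlap. BTN3A1, which binds phosphoantigens made in the mevalonate pathway and thereby activates γδ T cells, rose from 2.83, 3.46 and 2.98 CPM to 4.89, 5.80 and 5.90 CPM, also without overlap. The 8 tested members divided into 3 higher, 3 lower and 2 not called. NF-κB targets were more often higher than lower, 8 against 2 of 16, with a median of 0.24. BIRC3, an inhibitor of cell death, went from 4.65, 5.48 and 4.35 CPM to 10.9, 10.8 and 12.1 CPM, and CCL20, a chemokine of the gut epithelium, from 6.80, 7.44 and 8.50 CPM to 5.55, 4.002 and 5.04 CPM, both without overlap. IL1R2, a decoy receptor for interleukin 1, went from 10.3, 10.3 and 10.4 CPM to 3.74, 3.19 and 2.99 CPM.

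The Rab GTPases carry prenyl groups, which come from the mevalonate that lovastatin blocks. Of 51 tested Rab genes, which direct vesicle traffic, 23 were higher and 11 lower, with a median of 0.11. RAB31 rose by 0.72 ± 0.078 and RAB37 rose by 0.75 ± 0.077, while RAB3B fell by 0.96 ± 0.042. The enzymes that attach and process prenyl groups had 3 higher and 5 lower of 10, with a median of −0.05 (0.06 with library totals only), with the methyltransferase gene ICMT at −0.37 ± 0.034 and PGGT1B, a prenyltransferase subunit, at 0.34 ± 0.066.

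In the lysosome, MITF, a factor of lysosome genes, went from 4.24, 5.11 and 4.09 CPM to 9.35, 8.82 and 9.996 CPM, without overlap, and GAA, acid glucosidase, rose by 0.62 ± 0.046. The protease gene CTSZ fell by 0.59 ± 0.029 and CTSB fell by 0.40 ± 0.029. Of 21 tested members, 4 were higher and 12 lower, with a median of −0.11. When only library totals were scaled, 8 were higher and 7 lower, with a median of 0.01. LAMP3, a membrane protein of lysosomes, was among the largest rises of the table: it stood at 9.23, 7.81 and 9.15 CPM with lovastatin alone and at 38.3, 39.04 and 40.2 CPM with SGA360, 4.46-fold higher. Of BCL2 family members, BIK, a trigger of cell death, fell by 0.99 ± 0.15, and BMF fell by 0.62 ± 0.038. BMF was 2.37-fold below its level with SGA315 (adjusted p = 6.87e-40). Of 17 tested members, 3 were higher and 8 lower, with a median of −0.10 (0.02 when only library totals were scaled).

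Hosts of small nucleolar RNAs, intergenic RNAs and ZNF genes were more often higher than lower. SNHG29, which hosts small nucleolar RNAs in its introns, stood at 459, 463 and 472 CPM with lovastatin alone and at 936, 939 and 941 CPM with SGA360. SNHG8 went from 43.04, 42.5 and 45.2 CPM to 92.97, 90.4 and 94.6 CPM, and both genes rose about as far, by 1.01 ± 0.026 and 1.08 ± 0.044, without overlap. SNHG16 fell by 0.37 ± 0.036. Of 24 host genes, 11 were higher and 4 lower, with a median of 0.23. Of 172 intergenic RNAs, 67 were higher and 17 lower, with a median of 0.34, and LINC00668 went the other way, from 78.1, 80.1 and 80.6 CPM to 28.4, 28.9 and 28.1 CPM. Of 404 ZNF genes, 168 were higher and 58 lower, with a median of 0.15. ZNF441 went from 5.79, 6.46 and 6.10 CPM to 14.7, 14.7 and 14.9 CPM and ZNF488 from 21.1, 22.2 and 22.8 CPM to 10.5, 8.004 and 9.37 CPM. The part of expression level in these shifts was not tested.

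**Figure D4:**
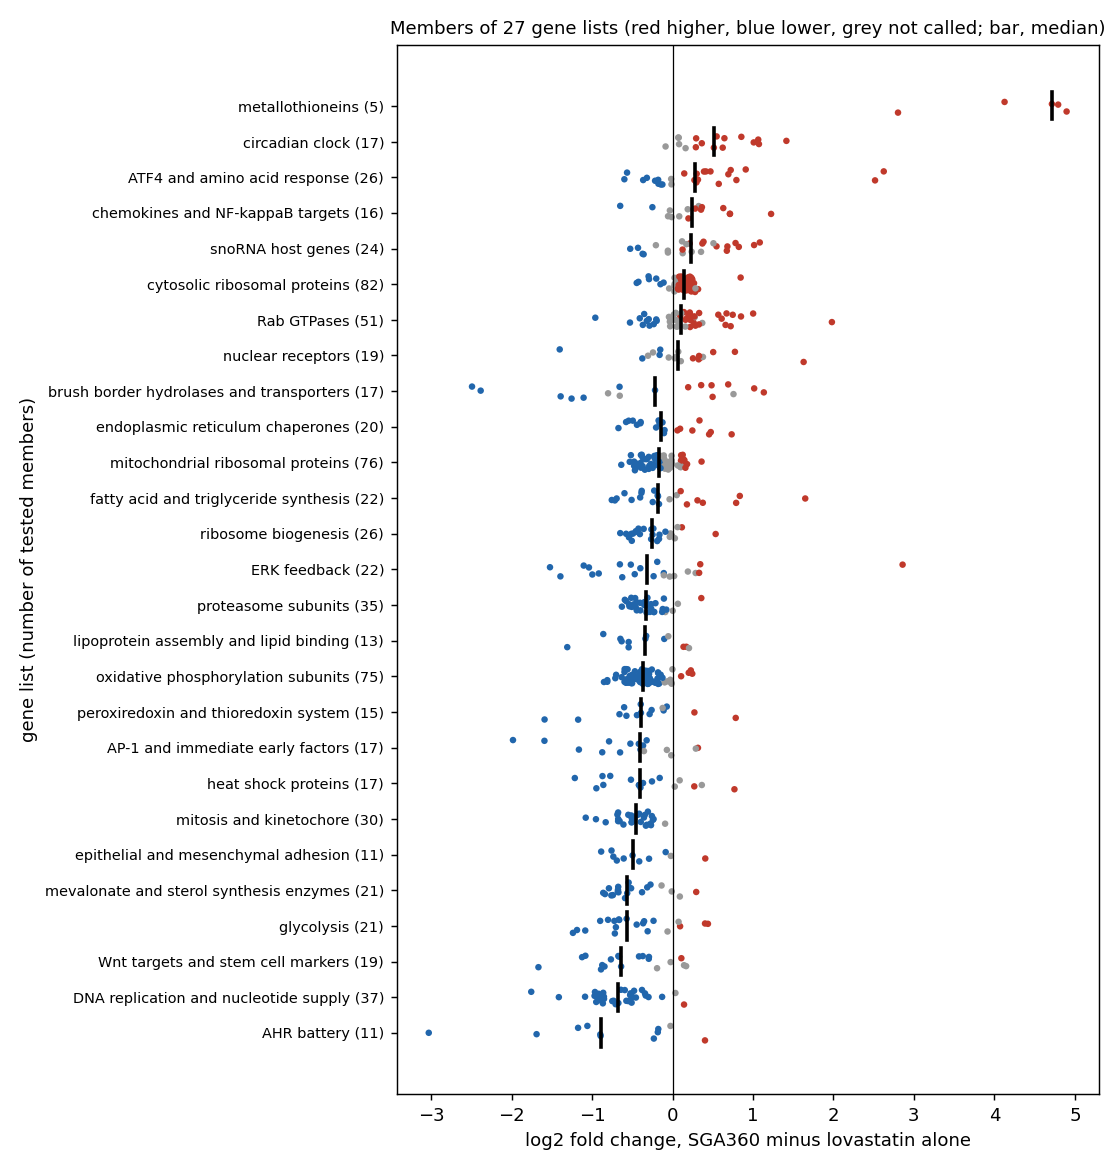
Log2 fold change of SGA360 minus lovastatin alone for every tested member of selected gene lists, 1 point per gene (red called higher, blue called lower, grey not called), with the median of each list as a bar. The metallothioneins, the clock list and the ATF4 list have medians above 0, and the replication, Wnt, glycolysis and AHR lists lie furthest below 0.

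Further large rises among the more abundant genes (5 CPM or more on average, groups apart) had no place in a list above. INHBE, a subunit of activin, stood at 5.19, 7.21 and 6.68 CPM with lovastatin alone and at 25.5, 24.2 and 25.97 CPM with SGA360. ARRDC3, an arrestin-domain protein that directs receptors to degradation, went from 44.7, 40.2 and 47.4 CPM to 158, 156 and 161 CPM. They rose 3.97-fold and 3.57-fold. GPCPD1, which splits glycerophosphocholine, rose 3.45-fold, SLC16A9 3.24-fold and CYFIP2, a regulator of actin nucleation, 3.75-fold. On the falling side, VCAN, the matrix proteoglycan versican, went from 85.4, 93.1 and 87.6 CPM to 29.4, 31.3 and 30.9 CPM, and DRD2, a dopamine receptor, from 61.6, 64.8 and 63.7 CPM to 20.99, 22.9 and 21.5 CPM. TNFRSF11B, the decoy receptor osteoprotegerin, went from 21.3 ± 1.504 to 6.88 ± 1.28 CPM. All of these groups were apart.

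The direct test of SGA360 against SGA315, in the same fit, called 6260 of the 14663 genes (42.7%), 3197 higher and 3063 lower with SGA360. Doses and times of the 2 ligands were matched. The differences given above are those of a part of the named genes, and a gene without one may also have met this threshold. DUSP15, SLC30A2, RASGRP1, LAMP3, NIBAN1 and UHRF1, for example, were each higher with SGA360 than with SGA315, by 0.89 ± 0.051, 0.97 ± 0.13, 0.54 ± 0.074, 0.43 ± 0.058, 0.39 ± 0.063 and 0.48 ± 0.068 on the log2 scale. KRT4, a keratin of stratified epithelia, went from 4.45, 4.88 and 4.41 CPM with lovastatin alone to 12.01, 13.7 and 13.6 CPM with SGA360 and stood at 2.57, 3.86 and 3.26 CPM with SGA315. It was 4.06-fold higher with SGA360 than with SGA315 (adjusted p = 3.93e-22). AMOTL2, a regulator of YAP and a YAP target, went from 148, 151 and 147 CPM to 229.6, 243 and 211 CPM, against 111, 109.9 and 100.2 CPM with SGA315. MYO1A, a myosin of the microvillus, did not pass, at 0.16 ± 0.14 (adjusted p = 0.335) from lovastatin alone and was 2.52-fold lower than with SGA315 (adjusted p = 6.74e-16). Where a difference did not pass the threshold, this does not show that the ligands act alike.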

How the data were processed

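RNA was extracted with Trizol and made into poly(A)-enriched libraries, per the labels' protocols. The authors deposited raw read counts per RefSeq transcript for 9 libraries. The submitters' processing notes name TopHat2 2.0.13, HTSeq 0.5.4p3 and hg19, and for the annotation release, strand setting and filters the sources used here give nothing. Reads from overlapping genes can therefore not be told apart. Among the largest changes, genes flagged for an overlapping gene with a sizeable share of counts are not named. Other named genes, such as the hosts of small nucleolar RNAs, can overlap genes and share reads with them.

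Of 65325 transcript rows, 64346 matched a symbol in RefSeq (GRCh38.p14, used for names and promoters only) and 545 in GENCODE 29. The remaining 434, with 0.255% of counts, were left out. The transcripts of a gene repeat its reads, since the row with the second highest count had a median of 99.8% of the highest. Per gene only the row with the highest total over the 9 libraries was kept, and 73 genes with counts identical to another's were dropped, leaving 27624 genes.

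The test on the counts was the quasi-likelihood F test of edgeR 4.0.16 (R 4.3.3). It used TMM scaling, low-count filtering with filterByExpr at a minimum of 10 per library and 15 in total, a term for each group over all 9 libraries, and Benjamini-Hochberg adjustment over 14663 genes. DESeq2 1.42.0 served as an alternative. No replicate pair agreed within sampling noise (chi-square per degree of freedom 1.36 to 2.40). Apart from those under other observations, named genes are taken from the 20 largest rises, the 20 largest falls and the members of 68 gene lists. The rises and falls are those of called genes whose groups did not overlap and whose mean level was 5 CPM or more. Genes under other observations were picked after the values were seen. The members and lists were chosen with earlier results of these data known.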

Additional observations from a re-analysis of the deposited data

How the results depend on the processing

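The 4601 genes higher and 4602 lower with SGA360 than with lovastatin alone became 3523 and 4158 with DESeq2, 3483 and 4125 of them shared. With scaling to library totals only they became 6459 and 3136. Leaving out 1 library at a time gave 4036 to 4701 higher and 4518 to 4763 lower. Against a 1.5-fold change, 429 were higher and 406 lower. For SGA360 against SGA315, where 3197 were higher and 3063 lower, that test called 75 and 108. DESeq2 called 2603 and 1954. Leaving out 1 library gave 2758 to 3160 and 2571 to 3046. The causes were not tested.

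Libraries with the same replicate number did not deviate together from their group means (r from −0.024 to 0.046). For libraries with different numbers, r ran from −0.057 to 0.034. A small shared effect can be lost in counting noise, so these values do not settle whether the numbers pair libraries. With a replicate block 4677 were higher and 4656 lower than with lovastatin alone, and 3280 and 3152 against SGA315.

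Of 213 genes named, 205 kept direction and call under each of the 16 alternatives that tested them. The fit of the compared groups only did not test all 213. The test against a 1.5-fold change was not among the 16, and some of the 16 only left out a library with SGA315. With totals only, MTF1 turned to 0.00379 (adjusted p = 0.963), and PER1 (0.19), PER2 (0.28), CDX2 (0.19), OCLN (0.15) and SI (0.87) were called higher. The calls of RFC4 and ANPEP were each lost under 4 alternatives. Of the list medians reported here, those that turned positive with totals only were zinc transport (0.0905), growth factor receptors (0.0594), Ras regulators (0.0139), hypoxia targets (0.0974), fatty acid oxidation (0.0148), aminoacyl-tRNA synthetases (0.105), the KLF family (0.0498), tight junctions (0.0453), prenylation (0.0597), lysosome (0.00773) and the BCL2 family (0.0169). Leaving out 1 library at a time, the hypoxia median ranged from −0.0503 to 0.0493, the latter without lovastatin replicate 2. Other medians that moved by over 1.5 times without 1 library ranged from −0.234 to −0.105 for G1 genes, −0.171 to −0.0226 for KLF genes, −0.116 to −0.0646 for Ras regulators, −0.0432 to −0.00806 for aminoacyl-tRNA synthetases, −0.158 to −0.0987 for fatty acid oxidation, −0.0878 to −0.0381 for growth factor receptors, 0.0207 to 0.0718 for nuclear receptors, −0.092 to −0.0546 for prenylation and −0.0435 to −0.0233 for zinc transport. Depth limits what a count of 0 shows, since it allows up to 3 counts.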

Other observations

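The following families were chosen after the values were seen and are described by counts and medians, with no test of a family. Tubulins, the subunits of microtubules, were mostly lower: of 15 tested, 10 were lower and 4 higher, with a median log2 fold change of −0.49. TUBB3 went from 104, 109 and 106 CPM with lovastatin alone to 46.9, 44.1 and 46.8 CPM with SGA360, TUBA1B fell by 0.80 ± 0.029, and the centrosomal TUBE1 rose by 0.61 ± 0.074. The CCT chaperonin, the ring that folds tubulin and actin, had 8 of 9 subunits lower and 1 higher, with a median of −0.35. CCT7 fell by 0.48 ± 0.027 and CCT5 fell by 0.43 ± 0.027, and the exception was CCT6B, a low-level paralog. Of 21 genes of heterogeneous nuclear ribonucleoproteins, which package nascent RNA, 16 were lower and 1 higher, with a median of −0.19. HNRNPM fell by 0.76 ± 0.030. When only library totals were scaled, 12 of these 21 genes were lower and 4 higher, with a median of −0.08. The tubulin and CCT medians were then −0.37 and −0.24.

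Basement membrane and matrix genes divided. Of 8 laminin chains, 6 were lower and 1 higher, with a median of −0.47. LAMA1 went from 3686 ± 76.3 to 2437 ± 34.1 CPM and LAMA5 from 1112 ± 19.5 to 709 ± 19.2 CPM, while LAMB2 rose by 0.49 ± 0.049. Of 16 integrin genes, which bind such chains, 9 were lower and 2 higher, with a median of −0.23. When only library totals were scaled, 8 integrin genes were lower and 2 higher, with a median of −0.11. For laminins the numbers were then 5 and 2, with a median of −0.36. Of 21 collagen genes, 10 were higher and 8 lower, with a median of 0.36. COL5A2 rose by 0.70 ± 0.031 and COL6A1 rose by 0.43 ± 0.034, whereas COL4A5 fell by 0.60 ± 0.035 and COL2A1 fell by 0.59 ± 0.027. Of 24 tested HOX genes, 11 were higher and 0 lower (median 0.34), with HOXA9 at 11.99, 13.4 and 13.4 CPM with lovastatin alone and 20.4, 20.7 and 21.2 CPM with SGA360. Non-coding genes with large shifts were ZFAS1, from 285 ± 10.5 to 598 ± 5.50 CPM, and NEAT1, from 72.1 ± 2.47 to 147 ± 2.82 CPM.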
